A study of Mus musculus with 8 samples.

Results

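The genes followed here are 10 that mouse oocytes are known for: Zp1, Zp2, Zp3, Figla, Sohlh2, Nlrp5, Ooep, Padi6, Nlrp14 and Npm2. They were chosen by name, and each probe that the platform annotation gives to one of them was taken, which came to 12 of the 25697 probes on the array and 10 of 16593 genes. Nlrp5 had 3 probes and each other gene had 1. Signals were read on Illumina mouse bead arrays in 8 samples, all labelled C57BL/6: epiblast stem cells (EpiSCs, the pluripotent cells of the postimplantation epiblast, labelled as carrying no Gcnf knockout, 2 arrays), Gcnf-deficient (Gcnf-/-) embryonic stem cells (ESCs), wt ESCs, and primordial germ cells (PGCs) of both genotypes derived from these ESCs in vitro and sorted for GFP on days 12 and 15, with 1 array per condition. The ESCs and the PGCs of both genotypes carried Oct4-GFP(ΔPE), a reporter driven by an Oct4 promoter without its proximal enhancer. ESCs grew on fibroblast feeders, both male and female wt lines and a female Gcnf-/- line are described, and no source used here ties a line to an array, so genotype and line cannot be told apart. The labels also tag each sample, ESCs and EpiSCs included, with the cell type PGC, and the groups here follow the sample titles.

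Oocyte genes act in sequence. The basic helix-loop-helix proteins Sohlh2 and Figla switch on the programme of the primordial follicle, the growing oocyte then secretes the zona pellucida coat built from Zp1, Zp2 and Zp3, and it stores maternal-effect proteins that the embryo needs after fertilization. Among these, Ooep and Nlrp5 belong to the subcortical maternal complex together with Tle6 and Khdc3, Padi6 is required for the cytoplasmic lattices of the oocyte, and Npm2 is a histone chaperone of oocyte chromatin. Gcnf (Nr6a1), the nuclear receptor deleted here, is itself expressed in oocytes and binds direct repeats of AGGTCA.

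For 4 of the 5 genes that gave signal, the reference table holds the 250 bases before the start site (RefSeq, GRCm38.p6), and these are printed 5′ to 3′ on the strand of the gene to show which E-boxes, the sites that helix-loop-helix proteins such as Figla and Sohlh2 recognise, lie in front of each. Capitals mark each CANNTG, the E-box pattern, which reads alike on both strands. Zp3 lies at chr5:135980105-135988624 on the plus strand and the stretch shown is chr5:135979855-135980104. That of Sohlh2 is chr3:55181794-55182043 (plus), that of Ooep chr9:78378589-78378838 (minus) and that of Padi6 chr4:140742644-140742893 (minus).
Zp3: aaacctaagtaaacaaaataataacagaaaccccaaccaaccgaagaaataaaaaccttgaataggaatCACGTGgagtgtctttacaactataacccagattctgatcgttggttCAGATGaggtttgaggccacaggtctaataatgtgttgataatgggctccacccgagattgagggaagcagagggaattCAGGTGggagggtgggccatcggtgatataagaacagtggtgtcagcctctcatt
Sohlh2: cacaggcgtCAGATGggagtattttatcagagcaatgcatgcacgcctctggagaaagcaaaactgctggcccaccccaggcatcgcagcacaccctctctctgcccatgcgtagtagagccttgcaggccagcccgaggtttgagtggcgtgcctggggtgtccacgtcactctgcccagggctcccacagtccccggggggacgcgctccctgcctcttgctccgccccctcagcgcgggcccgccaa
Ooep: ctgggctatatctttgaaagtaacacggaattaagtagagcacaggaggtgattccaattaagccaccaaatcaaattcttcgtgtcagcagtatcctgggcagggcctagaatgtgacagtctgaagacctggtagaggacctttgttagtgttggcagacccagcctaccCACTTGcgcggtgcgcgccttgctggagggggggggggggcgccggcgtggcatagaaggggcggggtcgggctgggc
Padi6: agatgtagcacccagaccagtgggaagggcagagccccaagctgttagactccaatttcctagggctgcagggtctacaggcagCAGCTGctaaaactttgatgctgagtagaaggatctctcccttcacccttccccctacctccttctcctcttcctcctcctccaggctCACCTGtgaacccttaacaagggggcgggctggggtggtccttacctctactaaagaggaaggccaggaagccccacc
Zp3 held 3 E-boxes, Padi6 2, and Sohlh2 and Ooep 1 each, whereas 66.2% of the 32851 promoters in the table held at least 1. One E-box of Zp3, at position -181 from the start, was CACGTG, a form of CANNTG found in 6.02% of promoters. No AGGTCA was found on either strand in these 4 stretches (14.0% of promoters hold it). Nlrp14 (chr7:107113455-107198103) is named without a sequence.

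A probe counted as detected on an array when its detection p, the share of negative control beads at least as bright, was under 0.01. By this measure 5 of the 10 genes were undetected on all 8 arrays: Nlrp5 (by each of its 3 probes), Zp1, Zp2, Figla and Npm2. By probe, 7 of the 12 were undetected throughout. Of all 25697 probes 12717 were detected on at least 1 of the 6 ESC and PGC arrays, so the count is not read as particular to these genes. The member count is the same over those 6 arrays, since no member was detected in EpiSCs. The 56 values of the 5 undetected genes lay between 2.16 and 5.74 in normalized log2 signal. Their median was 3.36, against a median of 3.44 over the values of all undetected probes of the series. Figla came nearest to detection: its p was 0.0201 on EpiSC array 2 (5.74), 0.0426 in Gcnf-deficient day-15 PGCs (4.99), 0.0276 in wt day-15 PGCs (4.95) and 0.0301 in those of day 12 (5.29), and at a limit of 0.05 it would be the sixth gene detected. Npm2 followed with 0.0526 in wt ESCs (4.97). The lowest p of Nlrp5 was 0.137, that of Zp1 0.119 and that of Zp2 0.229. Such values set an upper limit on the signal and do not show that the genes were silent.

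**Figure D1:**
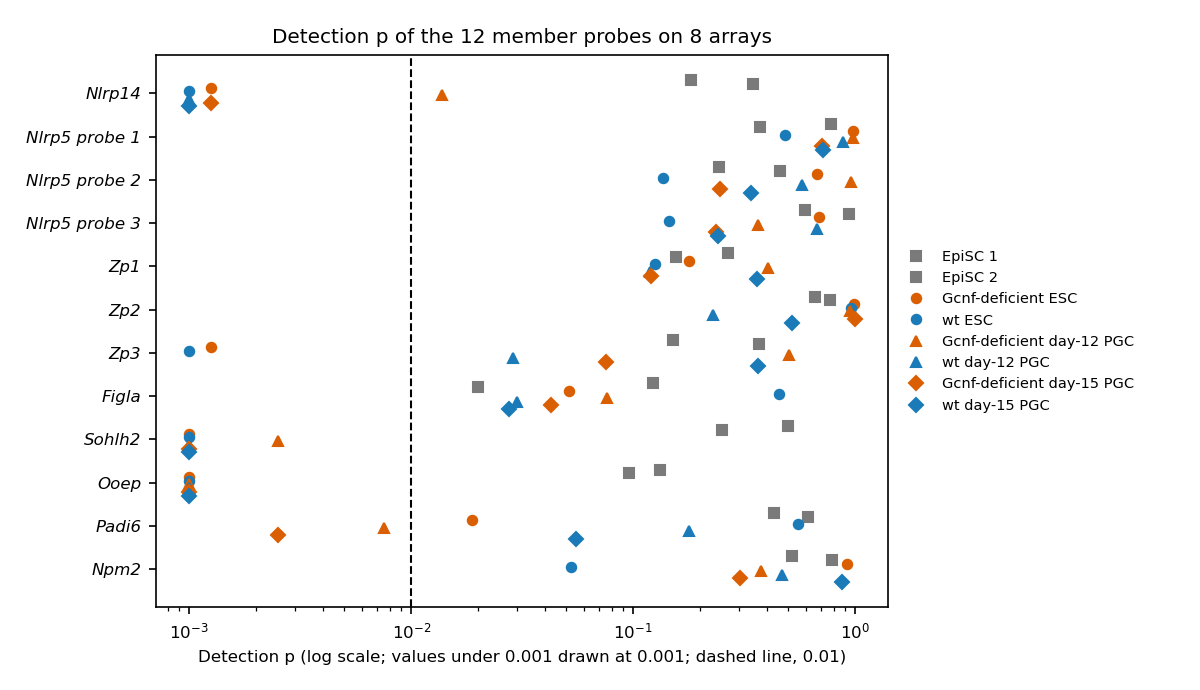
Detection p (log scale) of the 12 probes on 8 arrays, each point 1 array, with the limit of 0.01 as a dashed line and values under 0.001 drawn at 0.001. Nlrp5, Zp1, Zp2, Figla and Npm2 have no point left of the line, and no EpiSC array lies left of it for any gene.

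The other 5 genes, Nlrp14, Ooep, Sohlh2, Zp3 and Padi6, were detected on 2 to 6 arrays. None of them was detected on either EpiSC array, where 39.6% and 38.7% of all probes were. On the Gcnf-deficient arrays 4 were detected in ESCs, 3 in day-12 PGCs and 4 in day-15 PGCs, and on the wt arrays 4, 3 and 3. Of the detected genes Ooep and Sohlh2 were read on all 6 ESC and PGC arrays, Nlrp14 on 5, and Zp3 and Padi6 on 2 each. PGCs thus had 3 or 4 of the 10 genes detected, and the ESC arrays had 4. Of all probes 39.6% to 43.9% were detected on each of these arrays, so counts of 3 or 4 are not read as particular to these genes.

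**Figure D2:**
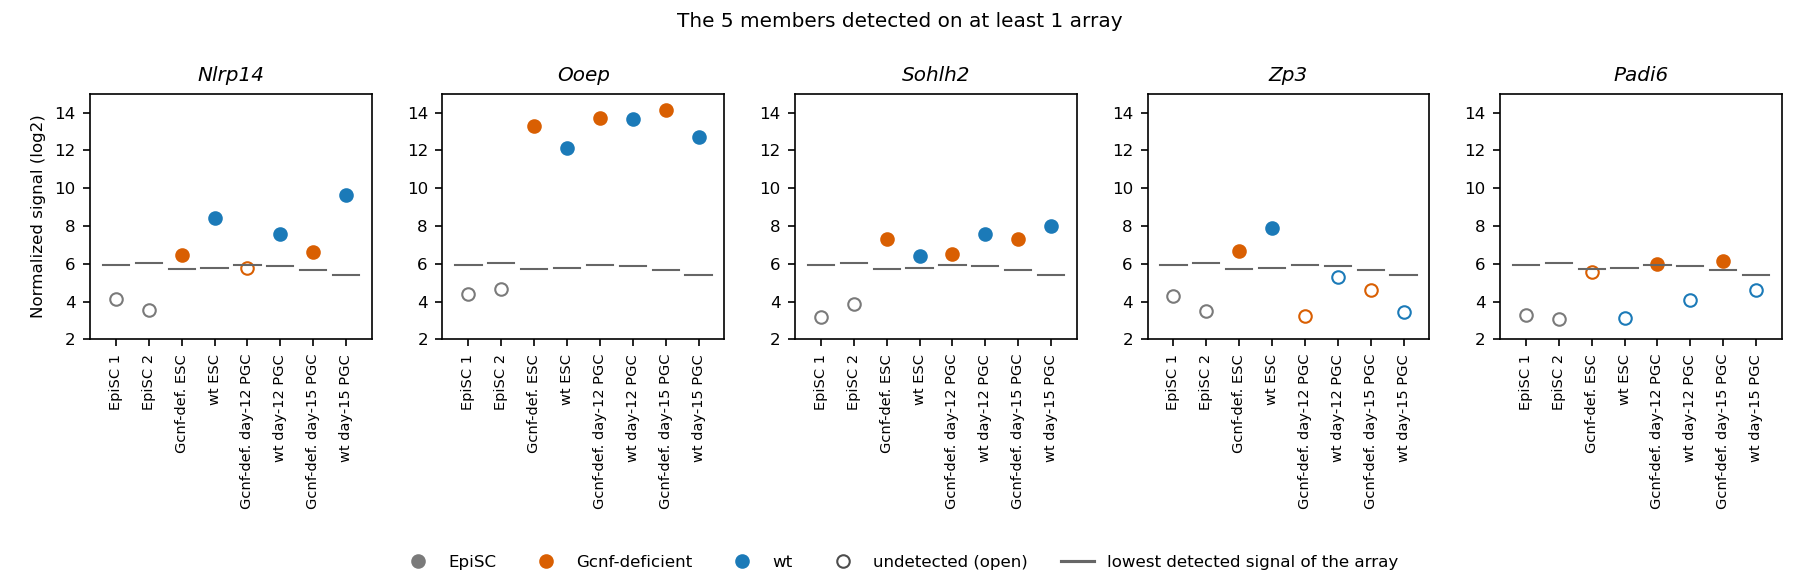
Normalized signal (log2) of the 5 detected genes on 8 arrays, filled where detected and open where not, with the lowest detected signal of each array (5.38 to 6.03) as a grey bar. Ooep stands far above the bar on the 6 ESC and PGC arrays, Nlrp14 is lower in Gcnf-deficient than in wt cells at each stage, Zp3 clears the bar in ESCs only, and Padi6 clears it in Gcnf-deficient PGCs only.

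The arrays were alike in breadth: 9939 to 11273 probes were detected on each, 38.7% to 43.9% of all. The only repeat was the EpiSC pair, whose log2 differences had an SD of 0.26 over the 9638 probes detected on both, with 0 over 4-fold apart. Over the 15215 probes undetected on both the SD was 0.69. Nr6a1, the targeted gene, read 11.03, 9.94 and 10.05 in Gcnf-deficient ESCs, day-12 PGCs and day-15 PGCs, against 9.64, 10.38 and 9.83 in wt cells. No source used here places its probe inside or outside the deleted part, so these values do not check the genotype labels and each direction below rests on the labels alone. Of 13 germ cell genes, 0 were detected in EpiSCs, and 7, 7 and 10 in Gcnf-deficient ESCs, day-12 PGCs and day-15 PGCs, against 8, 10 and 10 in wt. Prdm1, which specifies PGCs, was undetected on all 8 arrays, as were Gdf9, Bmp15 and Nobox, which define growing or primordial oocytes.

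Nlrp14 had the largest mean difference between the genotypes over the 3 stages (-2.23, Gcnf-deficient minus wt), followed by Padi6 (1.95). By measured signal Padi6 differed more in ESCs (2.44) and day-12 PGCs (1.88), and Zp3 in day-12 PGCs (-2.09). Neither of those genes was detected in the wt cells of these comparisons. Nlrp14 encodes an NLR-family protein of oocytes and early embryos. Its signal was 4.13 and 3.53 in EpiSCs (both undetected), then 6.47 in Gcnf-deficient ESCs, 5.78 in Gcnf-deficient day-12 PGCs (detection p of 0.0138) and 6.64 in Gcnf-deficient day-15 PGCs, against 8.42, 7.55 and 9.62 in wt ESCs, day-12 PGCs and day-15 PGCs. Each Gcnf-deficient value lay below each wt value. The difference was -1.95 in ESCs (3.86-fold lower in Gcnf-deficient cells), and on day 12 the gene was at least 3.11-fold lower in Gcnf-deficient PGCs. Here and below, "at least" sets the detected signal against the lowest detected signal of the other array, or against the gene's own undetected value where that is higher. In day-15 PGCs the difference was -2.98 (7.89-fold lower), which makes Nlrp14 the 1 member of 4 detected there that lay over 4-fold lower, where 1.62% of 11866 probes detected in either genotype did. It was -2.28 with an offset of 50 in the background step and -2.01 without background correction. With 1 array per condition these pairwise differences have no test. In these bulk samples, fewer cells of a type and less RNA per cell cannot be told apart.

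Across stages, the log2 difference of Nlrp14 from wt ESCs was -0.88 in wt PGCs of day 12 and 1.20 in those of day 15. The wt day-12 array also carried a signal of the Y-linked gene Eif2s3y that the other wt arrays lacked (11.64, against 2.82 on day 15 and 4.68 in ESCs). The Y-linked genes Uty and Kdm5d also read highest on this array, by smaller margins. Uty was detected on 5 arrays, at 6.53 on this one. It read 6.47 in Gcnf-deficient day-15 PGCs, 5.79 in Gcnf-deficient ESCs and 5.50 in wt day-15 PGCs. Kdm5d was detected on none, at 4.27 on this one and next at 3.58 in Gcnf-deficient day-15 PGCs. Stage and cell line cannot be told apart in wt comparisons with day 12. Between the wt PGC days Nlrp14 was 4.22-fold higher on day 15 than on day 12, and it was the only 1 of 3 detected members past 4-fold there, where 1.58% of probes were. In Gcnf-deficient cells the day-15 signal differed from the ESC signal by 0.17, within the EpiSC pair SD. When the 3 stages stood in for replicates in a limma fit with stage as a block, the Gcnf-deficient minus wt difference of Nlrp14 was -2.23 (SE 0.34), lower at 3 of 3 stages. It did not pass (limma, adjusted p = 0.126), and 0 of the 5 members tested did. Across all 12717 probes 1 passed (0.00786%), while 13.4% had an unadjusted p under 0.05, among them Nlrp14, Padi6 and Ooep. Nlrp14 passed in 3 of 12 other settings of this fit, with adjusted p over all settings between 0.0196 and 0.509.

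**Figure D3:**
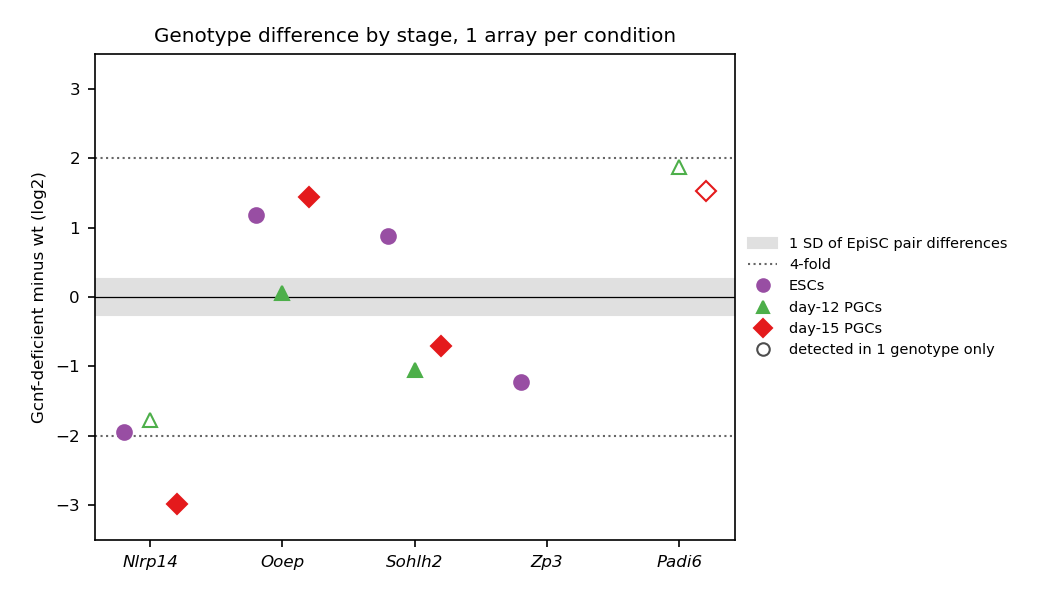
Log2 difference, Gcnf-deficient minus wt, of each detected gene in ESCs, day-12 PGCs and day-15 PGCs, 1 array per condition. Open symbols mark genes detected in 1 genotype only, pairs undetected in both are left out, the grey band is 1 SD of the EpiSC pair (0.26) and dotted lines are 4-fold. Nlrp14 is below the band at all 3 stages, at -1.95, -1.77 and -2.98, and Sohlh2 lies above it in ESCs and below it in PGCs.

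The genes whose signals followed that of Nlrp14 most closely were Asz1, a germ cell gene that acts in transposon silencing, and Nlrp4c, another NLR gene of oocytes. Among 11335 probes detected on at least 2 arrays Asz1 had Pearson r = 0.998 with Nlrp14 over the 8 arrays and 0.995 over the 6 without EpiSCs, and Nlrp4c had 0.992 and 0.983. The next were Gtf2e1 (0.990), Zfp715 (0.983) and Upf2 (0.982). All genes share the same 8 arrays, 2 of which are low EpiSC arrays, so these values are descriptions of a small set. Asz1 and Nlrp4c were picked for their likeness to Nlrp14. Their lower signals in Gcnf-deficient cells follow from that choice and are not counted as support. Asz1 read 6.88, 6.00 and 6.92 in Gcnf-deficient ESCs, day-12 PGCs and day-15 PGCs, against 8.30, 7.63 and 9.67 in wt. Nlrp4c read 7.23, 6.19 and 6.95 there, against 8.45, 7.92 and 9.18 in wt, which left it 4.70-fold lower in Gcnf-deficient day-15 PGCs. Its limma difference was -1.73 (SE 0.31) and did not pass (adjusted p = 0.158). The annotation gives 4 probes to Nlrp4c, and these values come from the brightest. Of the other 3, 1 was detected on the wt day-15 array only (5.64) and 2 on none. Germ cell genes detected in either genotype, Asz1 among them, had a median Gcnf-deficient minus wt difference of -1.40 in ESCs (9 genes), -1.43 in day-12 PGCs (10 genes) and -1.47 in day-15 PGCs (10 genes). Over all detected probes these medians were -0.01, -0.00 and -0.10. The list was split in ESCs: 2 genes, Ddx4 and Stra8, were over 4-fold higher in Gcnf-deficient cells and 1 was lower (2.09% and 2.85% of probes). In PGCs 0 were over 4-fold higher, and 4 were lower on day 12 and 5 on day 15 (1.1% and 1.62% of probes).

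**Figure D4:**
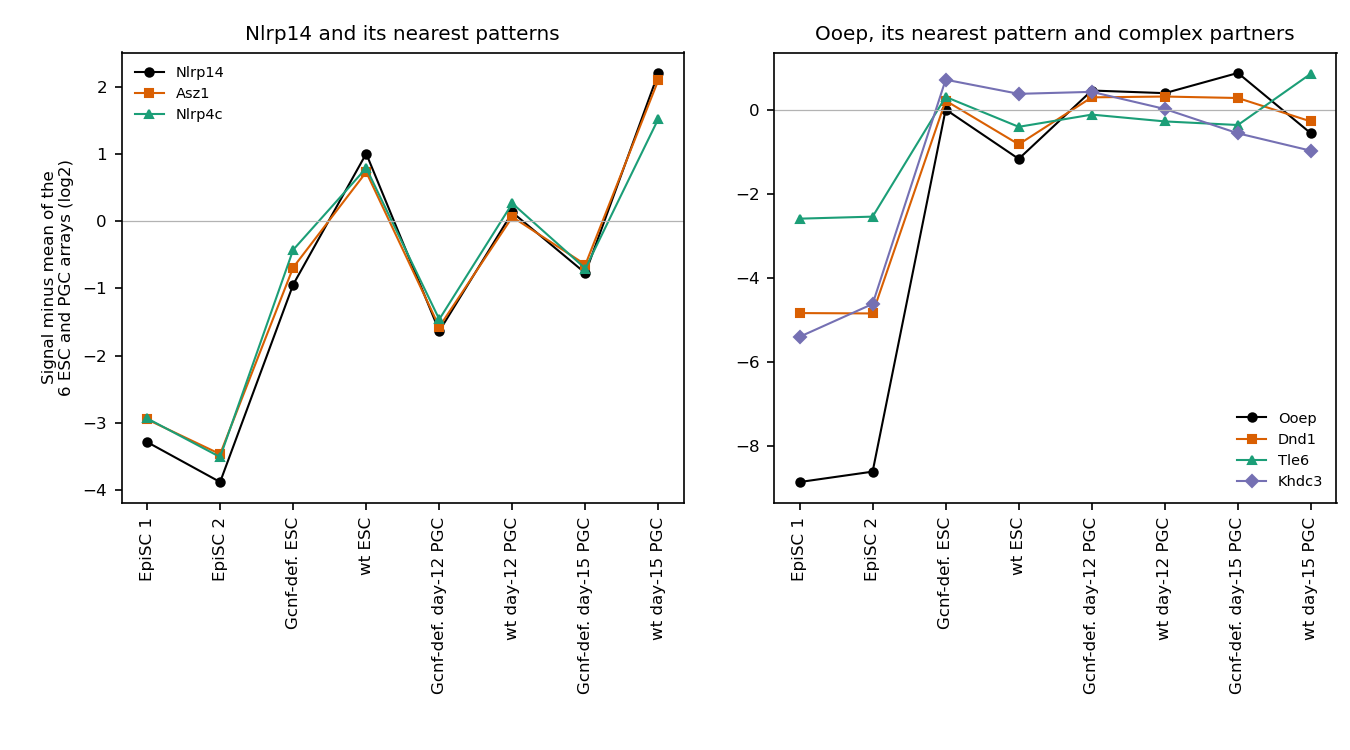
Signals (log2) on 8 arrays, each gene shown relative to its mean over the 6 ESC and PGC arrays. Nlrp14, Asz1 and Nlrp4c run together over all arrays (left), whereas Ooep, Dnd1, Tle6 and Khdc3 (right) share the low EpiSC level and part from each other among the ESC and PGC arrays.

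Ooep, which encodes the KH-domain protein Floped of the subcortical maternal complex, was expressed in ESCs and PGCs of both genotypes. Its signal was 4.41 and 4.66 in EpiSCs (undetected), then 13.28 in Gcnf-deficient ESCs, 13.73 in Gcnf-deficient day-12 PGCs and 14.15 in Gcnf-deficient day-15 PGCs, against 12.10, 13.67 and 12.71 in wt. The EpiSC values lay far below all 6 others. Gcnf-deficient cells were above wt by 1.18 in ESCs (2.26-fold) and by 1.44 in day-15 PGCs (2.71-fold), and by 0.06 in day-12 PGCs, within the EpiSC pair SD. The limma difference over the stages was 0.89 (SE 0.35) and did not pass (adjusted p = 0.359). Relative to ESCs of the same genotype, Gcnf-deficient PGCs were 0.45 higher on day 12 and 0.87 higher on day 15, and wt PGCs were 1.57 and 0.61 higher. Under median scaling the wt day-15 value turned to -0.03.

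Partners of Ooep in the complex, taken from a list of 41 other oocyte genes, were set beside it. Khdc3 (Filia) read 4.86 and 5.64 in EpiSCs, where it was undetected, and 10.98, 10.69 and 9.71 in Gcnf-deficient ESCs, day-12 PGCs and day-15 PGCs, against 10.65, 10.29 and 9.29 in wt. Tle6, which is related to transcriptional co-repressors, read 7.06 and 7.11 in EpiSCs, where it was detected, and 9.96, 9.54 and 9.29 in Gcnf-deficient cells, against 9.25, 9.38 and 10.51 in wt. Other genes placed in or near the complex gave less signal: Padi6 was detected on 2 arrays and Nlrp4f on 1, and Nlrp5, Nlrp2 and Zbed3 on none. The pattern nearest to that of Ooep was Dnd1, a germ cell RNA-binding protein gene, with r = 0.998 over 8 arrays and 0.938 over the 6 without EpiSCs. Next came Rpl3l (0.996 and 0.818), Tbx3 (0.995 and 0.765), Zscan5b (0.994 and 0.909) and Fez1 (0.994 and 0.871).

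Among the members themselves, likeness over all arrays and without the EpiSC arrays often differed. Nlrp14 and Ooep had r = 0.73 over 8 arrays and -0.71 over the 6 ESC and PGC arrays, and Sohlh2 and Ooep had 0.95 and 0.17. Ooep and Padi6 had 0.71 and 0.79. Over the 6 ESC and PGC arrays the 10 pairs of detected members ranged from -0.71 to 0.79.

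Sohlh2 was detected at modest levels on all ESC and PGC arrays. Its signal was 3.18 and 3.84 in EpiSCs (undetected), 7.28, 6.51 and 7.28 in Gcnf-deficient ESCs, day-12 PGCs and day-15 PGCs, and 6.40, 7.56 and 7.99 in wt. The genotypes overlapped, and the order turned round with stage: the Gcnf-deficient minus wt difference was 0.88 in ESCs, -1.06 in day-12 PGCs and -0.71 in day-15 PGCs. Wt PGCs were above wt ESCs by 1.16 on day 12 and by 1.59 on day 15, whereas Gcnf-deficient PGCs were 0.78 below their ESCs on day 12 (a difference of -0.78) and level with them on day 15 (0.00). The mean genotype difference in limma was -0.30 (SE 0.43, adjusted p = 0.769). Sohlh1, the partner of Sohlh2 in oocytes, was detected on 3 arrays near the lower limit, at 5.96 in Gcnf-deficient ESCs and at 5.87 and 6.18 in wt PGCs of days 12 and 15. Nearest to Sohlh2 in pattern were Tyk2 (r = 0.992), Nipsnap3b (0.991), Ube2q2 (0.991), Inpp5d (0.986) and Ap2b1 (0.986).

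Zp3, which encodes a protein of the zona coat, was the only one of the zona genes with signal, and it was detected in ESCs of both genotypes only. It read 4.30 and 3.48 in EpiSCs (undetected), 6.68 in Gcnf-deficient ESCs and 3.21 and 4.63 in Gcnf-deficient day-12 and day-15 PGCs (undetected), against 7.90 in wt ESCs and 5.31 and 3.46 in wt day-12 and day-15 PGCs (undetected). The wt day-12 value had a detection p of 0.0288. In ESCs the gene was 2.33-fold lower in Gcnf-deficient cells, and the limma difference over stages, which includes the undetected PGC values, was -0.72 (SE 0.62, adjusted p = 0.618). Wt PGCs were at least 4.11-fold lower than wt ESCs on day 12 and at least 5.75-fold lower on day 15. Gcnf-deficient PGCs were at least 1.70-fold lower than their ESCs on day 12 and at least 2.01-fold lower on day 15. By measured signal Zp3 was the 1 member over 4-fold lower in each of these comparisons, 1 of 4 in wt on days 12 and 15 (2.8% and 4.2% of all probes detected on either array) and 1 of 5 in Gcnf-deficient cells (1.19% and 1.5%). No member was over 4-fold higher in PGCs than in ESCs of its genotype, where 3.29% and 5.14% of probes were in wt and 1.78% and 2.91% in Gcnf-deficient cells. The Zp3 call was lost in all 4 comparisons with an offset of 50 or without background correction, and for Gcnf-deficient day-15 PGCs also with the deposited value table, neqc and median scaling. Past 2-fold higher lay 2 of 4 members in wt PGCs on each day, Ooep and Sohlh2 on day 12 and Nlrp14 and Sohlh2 on day 15 (13.1% and 17.7% of probes).

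Genes of fibroblasts, which served as feeders for ESCs, were also higher in ESCs than on the other arrays, and lower in the Gcnf-deficient ESCs than in the wt ones. Of a list of 10 such genes 6 were detected in Gcnf-deficient ESCs (median 6.23) and all 10 in wt ESCs (median 9.80), whereas 2 or 3 were detected on each EpiSC and PGC array (medians 3.44 to 3.95). Of 11 measured genes of ovarian somatic cells, 4 were detected on at least 1 array: 2 in Gcnf-deficient ESCs and 4 in wt ESCs, and 1 or 2 on the other arrays. Of these 11 genes 7 were undetected throughout. The part of feeder cells in the Zp3 signal, and in the differences of other members that use ESCs, was not tested. The nearest patterns to Zp3 were Cdc27 (r = 0.949), Trmo (0.945), Fam98a (0.937), Taf13 (0.937) and Pwp2 (0.936).

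Padi6, a peptidylarginine deiminase relative of oocyte lattices, was detected in Gcnf-deficient PGCs alone, and near the limit. Its signal was 3.28 and 3.06 in EpiSCs, 5.56, 5.98 and 6.16 in Gcnf-deficient ESCs, day-12 PGCs and day-15 PGCs, and 3.11, 4.10 and 4.63 in wt. Each Gcnf-deficient value was above each wt value, but only those of day 12 (detection p of 0.00752) and day 15 (0.00251) were detected, and ESCs missed the limit (0.0188). The gene was at least 1.08-fold higher in Gcnf-deficient than in wt PGCs on day 12 and at least 1.71-fold on day 15. The limma difference was 1.95 (SE 0.30) and did not pass (adjusted p = 0.127). Without background correction it was 0.45. No member was over 4-fold higher in Gcnf-deficient cells at any of the 3 stages, where 2.09%, 0.637% and 2.89% of probes were in ESCs, day-12 PGCs and day-15 PGCs, and none was over 4-fold lower in ESCs or day-12 PGCs, where 2.85% and 1.1% were. At a 2-fold limit, the genotype difference gave 1 member higher and 2 lower in ESCs (10.4% and 8.93% of probes), 1 higher and 2 lower in day-12 PGCs (5.12% and 5.25%), and 2 higher and 1 lower in day-15 PGCs (13.2% and 12.3%). The median difference of the detected members was -0.17, -0.50 and 0.36 at these stages, against -0.01, -0.00 and -0.10 over all detected probes. Nearest in pattern to Padi6 were Nrn1l (r = 0.990), 1700067K01Rik (0.980), Mknk1 (0.975), Drc3 (0.970) and Gde1 (0.970).

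The day-12 comparisons rest on a wt array that stood apart in a Y-linked signal. Eif2s3y, a Y-linked gene, was detected on it (11.64) and on no other array (2.35 to 4.68). Uty, another Y-linked gene, was detected on 5 arrays and Kdm5d on none, and both also read highest on this array, by smaller margins. In the day-12 differences, between genotypes and between wt stages, the part of what set this array apart was not tested. Without the day-12 arrays the limma difference was -2.47 for Nlrp14 (adjusted p = 0.187), 1.98 for Padi6 (0.227) and 1.31 for Ooep (0.308), and that of Sohlh2 changed sign to 0.09 (0.960).

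EpiSCs were set against wt ESCs and wt day-15 PGCs as cells of a later pluripotent state. All 4 members detected in wt ESCs were over 4-fold lower in EpiSCs by measured signal, where 7.51% of 11757 probes were, and 0 were higher (6.71%). This count was 3 with neqc, 2 with an offset of 50 and 1 without background correction. No member was detected in EpiSCs, so in this and the next comparison members entered only through the other cells, where they are high. None could be called higher, so the counts are not weighed against the shares of all probes. Since all EpiSC values were undetected the differences are limits: Ooep was at least 70.1-fold lower, Nlrp14 at least 5.48-fold, Zp3 at least 3.82-fold and Sohlh2 at least 1.35-fold. Against wt day-15 PGCs the 3 detected members were lower (10.5% of probes over 4-fold lower), Ooep by at least 107-fold, Nlrp14 by at least 12.6-fold and Sohlh2 by at least 4.06-fold. The limma differences were -8.18 (SE 0.21) for Ooep, -5.79 (SE 0.33) for Nlrp14 and -4.48 (SE 0.35) for Sohlh2, and 28% of all 12306 probes passed as lower in EpiSCs. These 3 genes entered the fit only through their detection in wt day-15 PGCs, where they are high, so their direction was set by that filter and their passing is not counted as support. The spread comes from the EpiSC pair alone (1 residual degree of freedom), since the PGCs had 1 array. The fit moderated the error of each gene towards that of all probes tested.

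The wider oocyte programme was measured with the 41 other genes, of which 35 had a probe and 11 were detected on at least 1 array. On the 8 arrays 4 were detected in each EpiSC array, 7, 5 and 8 in Gcnf-deficient ESCs, day-12 PGCs and day-15 PGCs, and 5, 7 and 10 in wt. Of all probes 39.6% and 38.7% were detected in EpiSCs, 41.2%, 39.6% and 41.5% in Gcnf-deficient cells, and 40.6%, 40.0% and 43.9% in wt. The wt day-15 array was thus the broadest for all probes too. All 11 were detected on at least 1 of the 6 ESC and PGC arrays, as were 12717 of all 25697 probes. The list counts genes by their brightest probe, so its share is not weighed against that of probes. The 24 genes of the list undetected throughout include Gdf9 and Bmp15, the growth factors the oocyte secretes, Nobox and Lhx8, transcription factors of the follicle, and Mos, the kinase that holds the mature egg in meiosis. Ybx2, an RNA-binding protein of germ cells, was at least 4.67-fold above wt ESCs in wt PGCs of day 15, and it read 8.52 in Gcnf-deficient day-15 PGCs against 8.00 in wt. Btg4, which clears maternal RNA, was at least 2.77-fold above wt ESCs in the same PGCs and was detected on the day-15 arrays only, at 6.39 in Gcnf-deficient and 7.25 in wt PGCs. Gja4, the gap junction protein connexin 37 of the oocyte, was likewise detected on day 15 only, at 5.97 in Gcnf-deficient and 6.45 in wt PGCs. Nlrp4f was detected in Gcnf-deficient day-15 PGCs only (5.99), at least 1.53-fold above wt. Cpeb1, which controls the translation of stored RNA, was at least 1.41-fold lower in day-12 PGCs without Gcnf than in their wt counterparts. In EpiSCs Khdc3 was at least 25.6-fold lower than in wt ESCs, Nlrp4c at least 5.56-fold, Obox6, a homeobox gene, at least 1.52-fold and Tle6 4.48-fold, whereas Ybx2 was at least 3.19-fold higher. Uchl1, a ubiquitin hydrolase of germ cells and neurons, was detected on all 8 arrays. It read 9.69 and 9.85 in EpiSCs and 9.63, 10.34 and 10.77 in Gcnf-deficient ESCs, day-12 PGCs and day-15 PGCs, against 9.06, 9.26 and 8.98 in wt (limma difference 1.14, SE 0.33, adjusted p = 0.254). None of the 11 passed the limma genotype fit (smallest adjusted p = 0.158, for Nlrp4c).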

How the data were processed

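RNA of 8 samples was hybridized to Illumina mouse bead arrays. Of the deposited tables, the one without normalization gives the signal intensity and the detection p-value of each probe as the authors exported them from BeadStudio 3.2. The other gives the authors' log2 values, background-corrected by RMA and quantile-normalized. The intensities were processed again by the steps so named, with an RMA background model written here, log2 and quantile normalization over 8 arrays (R 4.3.3, limma 3.58.1), which gave r = 0.998 with the deposited values but a median of 4.72, against 3.20 in the deposited table. The background step stretches differences of dim probes. Median raw signals were 138 to 189, and the number of arrays limits the precision. Platform symbols were used, with 23978 probes of 1 symbol and 1719 with none.

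Members and lists were chosen with earlier results of these data known. Differences were taken between single arrays, with 4-fold as the limit, and a probe entered a comparison if detected (p under 0.01) in either group. In limma, genotype was fitted over 6 arrays, blocked by stage (2 residual degrees of freedom), and EpiSCs against wt day-15 PGCs over 3 arrays (1 residual degree of freedom), for probes detected on at least 1 array of the fit, with Benjamini-Hochberg adjustment. In both fits the error of each probe was moderated towards that of all probes tested. Both fits were run on simulated data to check the mean estimated difference only. False calls were not held to a limit there, so that run does not show the error rate of either fit. Stages are not replicates, and the methods do not say whether the EpiSC pair is biological or technical, so p-values measure only the spread between these arrays. For genes with several probes outside the members, the brightest stands for the gene. Named genes were all members, the 5 nearest patterns of each detected member, and detected genes of the oocyte list. Genes named as undetected examples were chosen after their values were seen. The alternatives were the deposited table, 3 other background settings, median scaling, normalizing the 6 ESC and PGC arrays alone, other limits and filters, an intensity trend, no block, and leaving out stages or an EpiSC array.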

Additional observations from a re-analysis of the deposited data

Results flagged for a closer look

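Sohlh2 changed in opposite directions under the same contrast. Its Gcnf-deficient minus wt difference was 0.88 in ESCs and -1.06 in day-12 PGCs, and 0.88 in ESCs and -0.71 in day-15 PGCs. Its day-12 PGC minus ESC difference was -0.78 in Gcnf-deficient cells and 1.16 in wt cells. Each of these values is over 0.52 in size, which is 2 SDs of the EpiSC pair, in probes detected on all arrays involved. Without background correction some fell below it: 0.42 in ESCs, -0.43 in day-15 PGCs and -0.38 for Gcnf-deficient day-12 PGCs against their ESCs. The values that use wt day-12 PGCs rest on the array with the Eif2s3y signal. All 3 pairs use the wt ESC array, where the median of the fibroblast genes was 9.80, against 6.23 in Gcnf-deficient ESCs. The part of feeder cells in these differences was not tested. With 1 array per condition the difference between the effects was not tested. The 3 pairs of values share arrays: the ESC and day-12 values of each genotype enter more than 1 of them. No other of the 5 detected members showed such a pair among the 5 pairs of contrasts looked at, but not all could. Zp3 and Padi6, detected on 2 arrays each, could qualify in none. Nlrp14 could not in pairs that use Gcnf-deficient day-12 PGCs, where it was undetected. By measured signal the genotype difference of Zp3 also turned round, from -1.22 in ESCs to 1.17 in day-15 PGCs, where it was undetected in both genotypes. No group has enough arrays for a test of outlying samples.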

How the results depend on the processing

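Of 245 pairwise member differences recomputed under an alternative, 241 kept their direction. The exceptions were Ooep in wt day-15 PGCs against wt ESCs (-0.03) and Sohlh2 in Gcnf-deficient day-15 PGCs against their ESCs (0.04), both under median scaling, and Padi6 in EpiSCs against wt ESCs, undetected in both (-0.24 under median scaling, -0.05 without EpiSC array 1). The deposited value table, normalizing 6 arrays alone and leaving out an EpiSC array moved none by more than 1 SD of the EpiSC pair, taken as 0.26 for genes detected in both groups and as 0.69 otherwise, while no background correction moved 26 of 40, an offset of 50 moved 23 of 40, neqc 10 of 40 and median scaling 2 of 40. Counts of members changed as follows. At a 2-fold limit, the genotype difference gave 1 higher and 2 lower in ESCs, 1 higher and 2 lower in day-12 PGCs and 2 higher in day-15 PGCs, and wt PGCs gave 2 higher on day 12 and 2 on day 15. In ESCs the deposited table and median scaling each put 1 member, Nlrp14, over 4-fold lower in Gcnf-deficient cells (-2.08 and -2.18). With an offset of 50 or without background correction Zp3 was no longer over 4-fold lower in PGCs in any of the 4 comparisons (0 members), and for Gcnf-deficient day-15 PGCs the deposited table, neqc and median scaling also gave 0. The 4 members lower in EpiSCs than in wt ESCs became 3 with neqc (Sohlh2 at -1.75), 2 with an offset of 50 and 1 without background correction, and stayed at 4 without either EpiSC array. At a detection p of 0.05, 6 genes were detected.

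In the genotype fit 1 probe passed, against 48 with neqc, 80 with an offset of 50, 11 without background correction, 103 with an intensity trend, 60 without the ESC arrays, and 0 without the stage block or without the day-15 arrays (smallest adjusted p 0.0535 and 0.249, with 1105 and 1079 probes at an unadjusted p under 0.05). Members passing numbered 1 rather than 0 with neqc, with an offset of 50 and with a trend: Nlrp14, at -2.05 (adjusted p = 0.0447), -1.53 (0.0373) and -2.23 (0.0196). It was at -1.86 (0.509) without the day-15 arrays and at -2.37 (0.0538) without the ESC arrays. Sohlh2 was reversed, at 0.086, without the day-12 arrays. In the EpiSC fit 6871 probes passed, and 2507 with no detection filter. Genotypes were paired by stage in the genotype fit. By replicate number, no paired analysis was possible because each condition but the EpiSCs had 1 array.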
